A study of Mus musculus with 6 samples.

Results

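The calcium/calmodulin-dependent protein kinases (CaM kinases) and the kinases upstream of them were represented by 10 genes, chosen by name: the 4 CaMKII genes Camk2a, Camk2b, Camk2d and Camk2g, the CaMKI genes Camk1, Camk1d and Camk1g, the CaMKIV gene Camk4, and the CaM kinase kinase genes Camkk1 and Camkk2. They were 10 of 52550 genes in the count table, and all 10 were among the 16758 genes with enough counts to be tested. The 6 RNA libraries were made from hippocampus of C57BL/6J males. An adeno-associated virus (AAV) had been injected stereotaxically into CA1, the main output field of the hippocampus, on both sides when the animals were 8 weeks old, and every title gives 31 days. In the 3 TAF15 OE libraries the virus carried TAF15, an RNA-binding protein of the FET family, and its label names the CaMKIIα promoter, a fragment used to direct expression to excitatory neurons and taken from the gene of Camk2a itself. The 3 Control libraries had a control virus whose promoter and insert are not given in the sources used here. As the hippocampus was taken and not CA1 alone, cells outside the injected field were included. The labels do not say that each library is a separate mouse, so p-values measure only the spread between these samples. Values of single libraries are listed in the order of replicates 1, 2 and 3 of each group.

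CaM kinases turn a rise in intracellular calcium into protein phosphorylation: calcium binds calmodulin, and calcium-loaded calmodulin releases the kinase from its own inhibitory segment. CaMKII is a large ring of subunits, chiefly alpha and beta in the forebrain, that phosphorylates itself and then stays active after calcium falls, a step needed for long-term potentiation at hippocampal synapses and for spatial memory. CaMKI and CaMKIV act as single subunits and need a second phosphorylation by a CaM kinase kinase, which also activates AMP-activated kinase (AMPK). CaMKIV works in the nucleus, where it phosphorylates the transcription factor CREB.

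The libraries held between 14965464 and 16067000 counts, and the 10 kinase genes took 0.684% to 0.812% of them in Control and 0.481% to 0.584% in TAF15 OE. Taf15 itself stood at 61.7, 63.5 and 53.0 CPM (counts scaled to library size) under Control and at 249, 241 and 272 under TAF15 OE. Control 1 and TAF15 OE 1 stood apart in choroid plexus RNA: 5 markers of that tissue summed to 142 CPM in Control 1 and 1504 in TAF15 OE 1 but to between 4208 and 4890 in the other 4 libraries. Fold changes, calls and the share of Camk2a among the CaMKII genes were therefore also computed without both. The other shares, ratios, sums and correlations were not. Markers of hippocampal neurons were present in every library, among them Slc17a7, the vesicular glutamate transporter of excitatory neurons, at 1753 ± 111 CPM under Control and 1261 ± 106 under TAF15 OE (mean ± SD over n = 3 libraries, as for all levels that follow).

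The 2 abundant CaMKII genes, Camk2a and Camk2b, fell in TAF15 OE, and the scarcer Camk2g and Camk2d did not pass the test. Camk2a, which encodes the alpha subunit of excitatory forebrain neurons (ENSMUSG00000024617, chromosome 18, 60925618 to 60988152, plus strand of GRCm38), was covered by 84836, 67537 and 75478 counts under Control and by 60946, 53514 and 49558 under TAF15 OE. Scaled, the Control libraries stood at 5761, 4479 and 5029 CPM and the TAF15 OE libraries at 3894, 3518 and 3008. All 3 TAF15 OE libraries lay below all 3 Control libraries. The gene fell by 0.55 on the log2 scale (SE 0.11, 95% interval -0.80 to -0.30, adjusted p = 0.0109 by edgeR's quasi-likelihood test with Benjamini-Hochberg adjustment over all tested genes, as for all adjusted p that follow), to 68.2% of its Control level. Camk2b encodes the beta subunit, which also binds actin filaments (ENSMUSG00000057897, chromosome 11, 5969644 to 6066362, minus strand). It stood at 1595, 1376 and 1405 CPM under Control and at 1022, 903 and 822 under TAF15 OE. The groups were again apart, and the fall of 0.67 (SE 0.093, 95% interval -0.88 to -0.47, adjusted p = 0.00139) was the largest of the 10 genes. Both falls passed the test with each library left out in turn, between -0.67 and -0.45 for Camk2a and between -0.78 and -0.61 for Camk2b. The 4 CaMKII genes have closely related coding sequences, and how reads shared between them were counted is not given in the sources used here.

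Camk2g, the gamma subunit gene (ENSMUSG00000021820, chromosome 14, 20734875 to 20794088, minus strand), stood at 183, 172 and 181 CPM under Control and at 176, 195 and 189 under TAF15 OE. The groups overlapped, and the log2 fold change of 0.062 (SE 0.068, adjusted p = 0.595) had a 95% interval of -0.086 to 0.21. Camk2d, the delta subunit gene best known from heart muscle (ENSMUSG00000053819, chromosome 3, 126596302 to 126846326, plus strand), stood at 32.6, 46.0 and 44.2 CPM under Control and at 45.4, 56.1 and 73.0 under TAF15 OE. Its highest values were in TAF15 OE 2 and 3, and TAF15 OE 1 fell within the Control range. The log2 fold change of 0.51 (SE 0.20, 95% interval 0.020 to 0.99) did not pass the test (adjusted p = 0.155, unadjusted p = 0.0434). It passed without TAF15 OE 1 (0.63, adjusted p = 0.0489), with Control 1 and TAF15 OE 1 both left out (0.49, adjusted p = 0.0122), without a filter on low counts (adjusted p = 9.22e-05) and with DESeq2 (adjusted p = 0.0244).

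**Figure D1:**
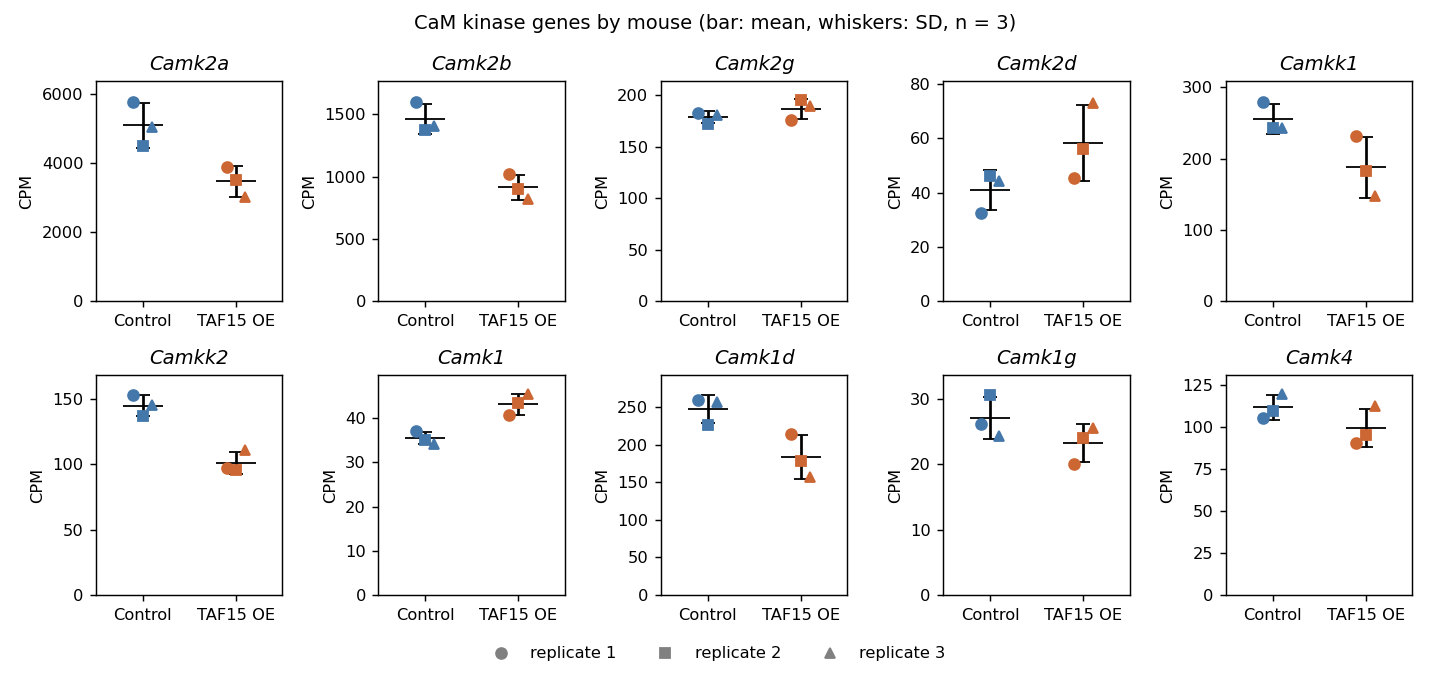
Level of each of the 10 kinase genes in CPM (vertical axes, from 0) in 3 Control and 3 TAF15 OE libraries, 1 point each, with the mean as a bar and the SD as whiskers. Camk2a, Camk2b, Camkk1, Camkk2 and Camk1d are lower in every TAF15 OE library than in any Control library, Camk1 is higher in every one, and the groups overlap for Camk2g, Camk2d, Camk1g and Camk4.

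Set against each other per length (FPKM, which corrects for gene length and depth), the CaMKII genes spanned a wide range. In Control, Camk2a stood at 669 ± 72.2 FPKM and ranked 23rd of 30821 listed genes, Camk2b at 157 ± 9.89, Camk2g at 27.4 ± 0.504 and Camk2d at 1.79 ± 0.346. Their sum was 940, 778 and 846 FPKM under Control and 664, 613 and 539 under TAF15 OE, with no overlap. A share within 1 library does not depend on how libraries are scaled. The share of Camk2a in that sum was 79.0%, 76.9% and 78.5% under Control and 78.7%, 78.1% and 76.6% under TAF15 OE. The groups overlapped, and the difference of -0.35 percentage points (exact two-sided permutation test, p = 0.6) turned sign without Control 1 (0.079) or without TAF15 OE 3 (0.24). The share of Camk2b was 17.9%, 19.3% and 17.9% under Control and 16.9%, 16.4% and 17.1% under TAF15 OE, each TAF15 OE library below each Control library. The share of Camk2g went from 3.22% ± 0.268 to 4.93% ± 0.745, and that of Camk2d from 0.213% ± 0.0585 to 0.445% ± 0.159, both without overlap. With 3 libraries against 3 the exact test cannot go below p = 0.1, the value it gave for Camk2b, Camk2g and Camk2d (0.15 adjusted over the 15 shares, ratios and sums computed), so these differences cannot pass a threshold of 0.05. The log2 ratio of Camk2a to Camk2b was 2.14, 1.99 and 2.13 under Control and 2.22, 2.25 and 2.16 under TAF15 OE. The 2 groups did not overlap in this ratio either, although they differed by only 0.12 (exact permutation p = 0.1).

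**Figure D2:**
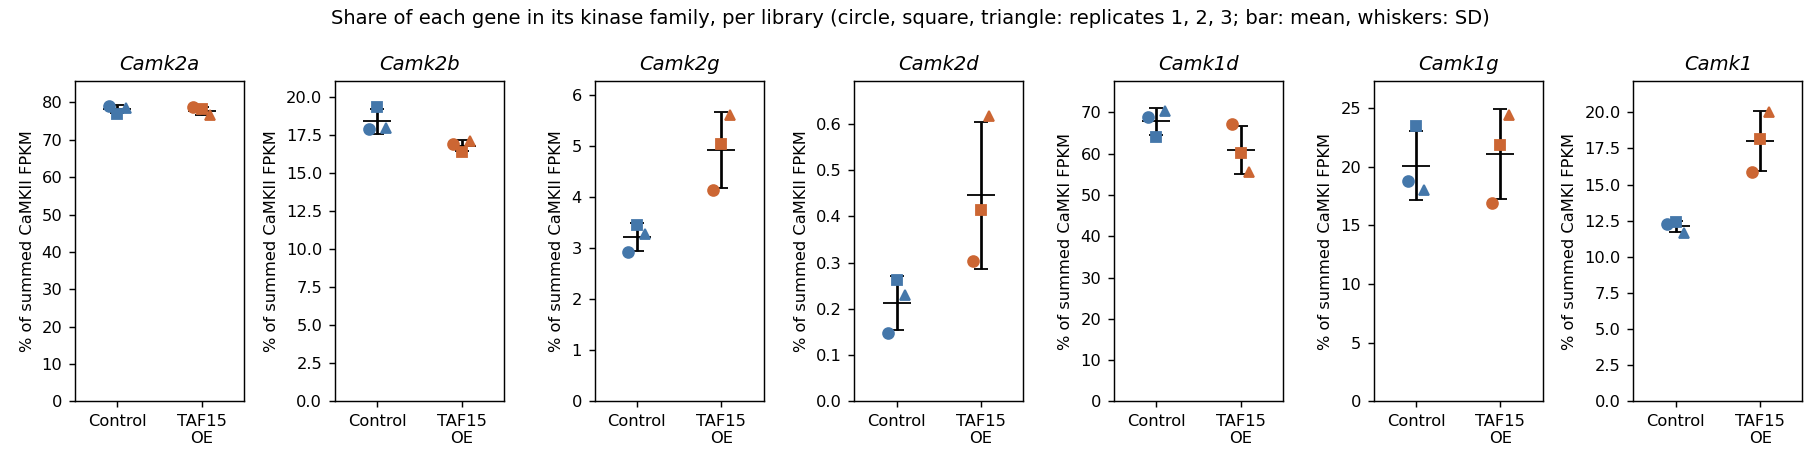
Share of each gene in the summed FPKM of its family (percent, vertical axes from 0), for the 4 CaMKII genes and the 3 CaMKI genes, 1 point per library with the mean as a bar and the SD as whiskers. Camk2a holds 76.6% to 79.0% of CaMKII in all 6 libraries, while the shares of Camk2g, Camk2d and Camk1 are higher in every TAF15 OE library than in any Control library.

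Of the upstream kinase genes, Camkk2 fell and Camkk1, lower on average, did not pass the test. Camkk2, whose product activates CaMKI, CaMKIV and AMPK (ENSMUSG00000029471, chromosome 5, 122731170 to 122779409, minus strand), stood at 153, 137 and 145 CPM under Control and at 97.3, 95.7 and 111 under TAF15 OE. The groups were apart, and the log2 fold change of -0.52 (SE 0.078, 95% interval -0.69 to -0.35, adjusted p = 0.00219) corresponds to 69.9% of the Control level. It passed the test with each library left out, between -0.60 and -0.48. Camkk1, the paralog (ENSMUSG00000020785, chromosome 11, 73019008 to 73042073, plus strand), stood at 279, 243 and 243 CPM under Control and at 233, 183 and 148 under TAF15 OE. The groups did not overlap, but the TAF15 OE libraries were spread widely, from close to Control in TAF15 OE 1 to far below it in TAF15 OE 3. The log2 fold change was -0.44 (SE 0.16, 95% interval -0.82 to -0.064, adjusted p = 0.118, unadjusted p = 0.0280). It passed without TAF15 OE 1 (-0.65, adjusted p = 0.00275), with Control 1 and TAF15 OE 1 both left out (-0.58, adjusted p = 0.00157), without a filter (adjusted p = 5.96e-05) and with DESeq2 (adjusted p = 0.00491). The order of the TAF15 OE libraries differed between the 2 genes: TAF15 OE 3 had the lowest Camkk1 and the highest Camkk2 of its group. The log2 FPKM ratio of Camkk1 to Camkk2 was accordingly 2.81, 2.49 and 1.96 under TAF15 OE, on both sides of the 2.42, 2.38 and 2.29 of Control 1, 2 and 3 (exact permutation p = 0.8).

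Among the kinases that need this upstream step, Camk1d fell, Camk1 rose, and Camk1g and Camk4 did not pass the test. Camk1d encodes CaMKI delta (ENSMUSG00000039145, chromosome 2, 5293457 to 5714515, minus strand). It stood at 259, 226 and 256 CPM under Control and at 214, 178 and 156 under TAF15 OE, without overlap, and fell by 0.43 on the log2 scale (SE 0.11, 95% interval -0.68 to -0.19, adjusted p = 0.0272). It no longer passed without Control 1 (adjusted p = 0.0919), Control 3 (0.0904), TAF15 OE 2 (0.103) or TAF15 OE 3 (0.0553), at fold changes of -0.43 to -0.34, and ranged up to an adjusted p of 0.135 over all alternatives. Camk1, the CaMKI alpha gene, which is expressed in many tissues (ENSMUSG00000030272, chromosome 6, 113334124 to 113343984, minus strand), was the only called gene of the 10 that was higher. It stood at 37.0, 35.1 and 34.2 CPM under Control and at 40.6, 43.3 and 45.4 under TAF15 OE, all above Control, with a log2 fold change of 0.28 (SE 0.084, 95% interval 0.097 to 0.47, adjusted p = 0.0438). It did not pass without Control 1 (adjusted p = 0.0701), Control 2 (0.106), Control 3 (0.121), TAF15 OE 2 (0.138) or TAF15 OE 3 (0.153), with DESeq2 (0.109), with its size factors in edgeR (0.0561) and without a filter (0.0940). The fold change was positive in each of these, from 0.23 to 0.31. Camk1 shares 232 of its 5975 exon bases with Ogg1 on the other strand, a gene with 91 to 121 counts in these libraries (log2 fold change 0.16, adjusted p = 0.556), against 514 to 748 for Camk1, and whether the counting used strand is not given in the sources used here.

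Camk1g, CaMKI gamma (ENSMUSG00000016179, chromosome 1, 193346346 to 193370298, minus strand), stood at 26.1, 30.6 and 24.4 CPM under Control and at 20.0, 24.1 and 25.6 under TAF15 OE. The groups overlapped (log2 fold change -0.22, SE 0.12, 95% interval -0.49 to 0.046, adjusted p = 0.257). Camk4 (ENSMUSG00000038128, chromosome 18, 32939041 to 33195767, plus strand) stood at 105, 109 and 120 CPM under Control and at 90.4, 95.1 and 112 under TAF15 OE. The value of TAF15 OE 3 lay within the Control range, and the log2 fold change of -0.17 (SE 0.089, 95% interval -0.36 to 0.028, adjusted p = 0.241) was small against those of Camk2a and Camk2b. Per length, Camk1d held 67.8% ± 3.25 of the summed CaMKI FPKM in Control and 60.9% ± 5.89 in TAF15 OE, with overlap (exact permutation p = 0.2). The share of Camk1 went from 12.1% ± 0.394 to 18.0% ± 2.09 without overlap (exact permutation p = 0.1).

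The order of the 10 genes by FPKM changed in the middle. In Control it ran from Camk2a (669) and Camk2b (157) through Camkk1 (67.2 ± 4.33), Camk1d (32.6 ± 2.03), Camk2g (27.4), Camkk2 (13.0 ± 0.493), Camk1g (9.64 ± 1.26), Camk4 (8.88 ± 0.672) and Camk1 (5.83 ± 0.157) to Camk2d (1.79). The neighbours Camk1g and Camk4 overlapped between Control libraries. In TAF15 OE, Camk2g (29.6 ± 1.86) came before Camk1d (25.0 ± 3.66), with overlap between libraries, and Camkk2 (9.41 ± 0.869) overlapped with Camk1g (8.54 ± 1.15) and Camk4 (8.17 ± 1.04), and Camk4 with Camk1 (7.32 ± 0.492).

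In all, 4 of the 10 genes passed the test as lower and 1 as higher, against 5.95% of all tested genes lower and 9.32% higher (997 and 1562 of 16758). The median log2 fold change was -0.33 over the 10 genes and 0.026 over all tested genes. The groups did not overlap for 6 of the 10, against 34.6% of all tested genes. Without both Control 1 and TAF15 OE 1, 5 were lower and 2 higher, against 5.99% and 7.05% of all genes then tested. DESeq2 called 5 lower and 1 higher, against 7.88% and 8.81% of all genes, but its higher gene was Camk2d and not Camk1.

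**Figure D3:**
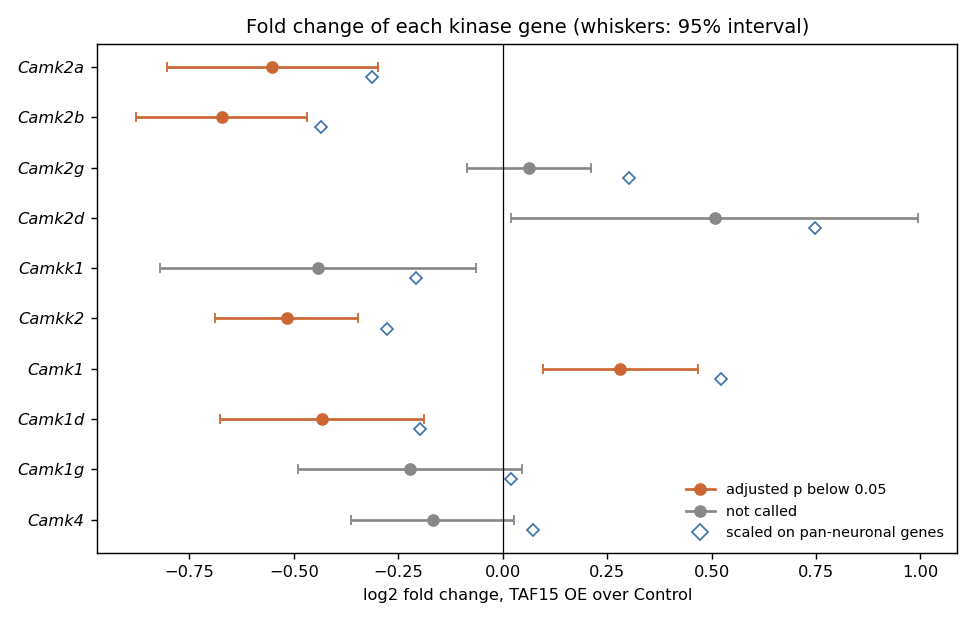
Log2 fold change of each kinase gene, TAF15 OE over Control (horizontal axis), with its 95% interval as whiskers, in orange where the adjusted p was below 0.05 and in grey otherwise. Open diamonds give the fold change after scaling on pan-neuronal genes. They lie to the right of the circles, and those of Camk2a (-0.31), Camk2b (-0.43), Camkk2 (-0.28), Camkk1 (-0.21) and Camk1d (-0.20) remain below 0.

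Most neuronal marker sums were lower in TAF15 OE, as the kinase sum was, and glial marker sums were higher. Of 10 pan-neuronal genes 6 fell, and their summed level was 6073 to 6551 CPM in Control and 5180 to 5433 in TAF15 OE. Of 6 excitatory neuron markers 2 fell (Slc17a7 and Neurod6), with sums of 2843 to 3431 and 1974 to 2633 CPM. Astrocyte markers, by contrast, summed to 2383 to 2762 CPM in Control and 5026 to 5545 in TAF15 OE (5 of 6 rose), microglia markers to 305 to 347 and 550 to 757 (5 of 6 rose), oligodendrocyte markers to 4724 to 5077 and 5804 to 7523 (5 of 6 rose) and endothelial markers to 135 to 176 and 180 to 266 (2 of 5 rose). Interneuron markers overlapped, at 684 to 748 and 594 to 701 CPM (2 of 7 fell). Of the fields of the hippocampus, CA1 markers summed to 769 to 784 and 506 to 680 CPM (2 of 6 fell), CA2 and CA3 markers to 427 to 460 and 317 to 384 (1 of 7 fell), and dentate granule markers to 436 to 550 and 325 to 472 (3 of 6 fell). Over all tested genes 5.95% were lower and 9.32% higher. No marker was at 0 in a library. In such bulk samples fewer cells of a type and less RNA of a gene per cell cannot be told apart, and the part of these markers in the kinase differences was not tested.

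Another scaling set the kinases against neuronal RNA. With libraries scaled on the 10 pan-neuronal genes, after which the median log2 fold change over all genes was 0.27 and 96.7% of all calls were higher (61.0% in the analysis reported and 72.0% with total counts alone), Camk2a was at -0.31 (adjusted p = 0.0287), Camk2b at -0.43 (adjusted p = 0.00188) and Camkk2 at -0.28 (adjusted p = 0.0266). On the scale of the other results, excitatory neuron markers had a median log2 fold change of -0.46, near the -0.55 of Camk2a and the -0.52 of Camkk2, and pan-neuronal genes one of -0.26. On the pan-neuronal scale Camk1d (-0.20, adjusted p = 0.133), Camkk1 (-0.21, adjusted p = 0.254) and Camk2d (0.75, adjusted p = 0.0591) were not called, Camk1 (0.52, adjusted p = 0.00179) and Camk2g (0.30, adjusted p = 0.0101) were called higher, and Camk4 (0.072) and Camk1g (0.021) turned from negative to positive. The libraries did not order the same way for each neuron type. Within TAF15 OE the summed kinase level was highest in replicate 1 (5832 CPM) and lowest in replicate 3 (4690). Camk2a made up most of it (3894 and 3008 CPM). Camk2b, Camkk1 and Camk1d ran the same way. Camk1, Camk2d, Camk4, Camk1g and Camkk2 were instead highest in replicate 3, and Camk2g in replicate 2. Excitatory neuron markers (2633 and 1974) and dentate granule markers (472 and 325) were likewise highest in replicate 1 and lowest in replicate 3. CA1 markers were lowest in replicate 1 (506) and highest in replicate 3 (680).

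**Figure D4:**
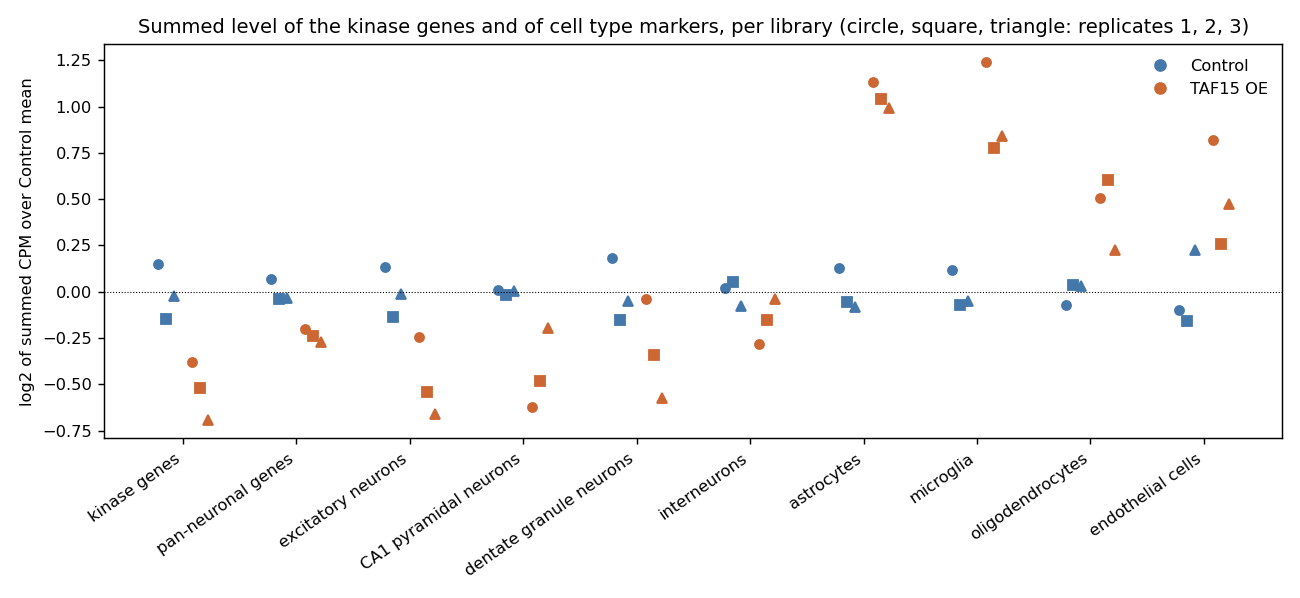
Summed CPM of the 10 kinase genes and of cell type markers in each library, as log2 over the Control mean (vertical axis). Camk2a makes up most of the kinase sum. The kinase genes, pan-neuronal, excitatory neuron and CA1 markers lie lower in every TAF15 OE library than in any Control library, astrocyte, microglia, oligodendrocyte and endothelial markers lie higher, and the groups overlap for dentate granule neurons and interneurons.

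The start regions of 4 of the 5 called genes are shown, of Camk2b, Camkk2 and Camk1d, which fell, and of Camk1, which rose. RefSeq windows on GRCm38.p6 were used for 7 of the 10 genes, matched by symbol (8 windows, since Camk1d has 2). None was used for Camk2a, the fifth called gene, Camk2g or Camk4. The starts are those of RefSeq. The windows of Camk2b and Camk2d and the second Camk1d window printed lie inside the gene positions given above. For Camkk1 and the first Camk1d window printed, bases just after the start were not found near a GENCODE transcript start. The 250 bases before each start are printed 5′ to 3′ on the gene's strand, with capitals for any match, on either strand, to TGACG (the short site of CREB, also part of its full site TGACGTCA), TCGTG (a core bound by NPAS4 dimers), CACGTG (an E-box), GGGCGG (a GC box) or TATAAA.
Camk2b (chr11:6065749-6065998, minus strand): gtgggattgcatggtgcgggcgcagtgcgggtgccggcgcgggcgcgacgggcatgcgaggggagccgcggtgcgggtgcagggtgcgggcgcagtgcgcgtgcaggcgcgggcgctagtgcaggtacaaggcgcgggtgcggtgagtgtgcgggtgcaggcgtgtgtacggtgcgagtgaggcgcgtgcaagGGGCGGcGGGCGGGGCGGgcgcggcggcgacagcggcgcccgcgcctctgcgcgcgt
Camkk2 (chr5:122779411-122779660, minus strand): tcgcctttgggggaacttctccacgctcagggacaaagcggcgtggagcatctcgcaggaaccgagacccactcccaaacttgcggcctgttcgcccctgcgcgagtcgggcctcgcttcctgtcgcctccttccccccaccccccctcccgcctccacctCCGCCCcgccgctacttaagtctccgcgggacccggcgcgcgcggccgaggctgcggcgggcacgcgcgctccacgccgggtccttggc
Camk1d (chr2:5714763-5715012, minus strand): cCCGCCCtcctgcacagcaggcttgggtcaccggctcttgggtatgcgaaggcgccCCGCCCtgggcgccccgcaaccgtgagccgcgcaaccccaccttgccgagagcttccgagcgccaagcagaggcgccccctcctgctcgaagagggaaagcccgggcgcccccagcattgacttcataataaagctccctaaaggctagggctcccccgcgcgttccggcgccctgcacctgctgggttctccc
Camk1d (chr2:5676047-5676296, minus strand): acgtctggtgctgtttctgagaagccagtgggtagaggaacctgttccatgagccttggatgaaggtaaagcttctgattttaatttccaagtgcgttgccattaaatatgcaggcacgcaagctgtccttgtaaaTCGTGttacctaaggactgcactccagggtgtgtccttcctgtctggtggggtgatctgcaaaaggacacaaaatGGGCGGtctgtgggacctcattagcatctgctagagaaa
Camk1 (chr6:113343923-113344172, minus strand): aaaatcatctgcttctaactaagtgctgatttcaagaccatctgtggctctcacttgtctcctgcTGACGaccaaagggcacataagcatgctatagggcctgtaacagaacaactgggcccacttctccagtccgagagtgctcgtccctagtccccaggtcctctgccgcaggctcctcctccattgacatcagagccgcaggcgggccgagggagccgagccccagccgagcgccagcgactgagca
The window of Camk2b was the richest in G and C of the 8, at 78.4% with 44 CpG dinucleotides, and that of Camkk2 had 72.4% and 32, against medians of 52.4% and 6 over 32851 windows of this length. GGGCGG occurred 3 times before Camk2b, once before Camkk2, in both Camk1d windows (2 times and once) and not before Camk1, and 32.7% of all windows hold it. It also occurred 3 times before Camk2d and 2 times before Camkk1, which did not pass the test. TGACG, in 17.8% of all windows, was found before Camk1 and Camkk1, and TCGTG, in 13.3%, in the second Camk1d window printed, before Camk2d and 2 times before Camkk1. TGACGTCA (1.55% of all windows), CACGTG (6.02%) and TATAAA (12.4%) were in none of the 8 windows. Such matches describe letters and say nothing of binding.

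Other genes of the pathway followed in 8 lists with 61 genes, 60 of them tested, of which 22 fell and 2 rose (median log2 fold change -0.19). The counts are read against the same 5.95% lower and 9.32% higher. Without Control 1, Control 3 or TAF15 OE 2 the lower genes numbered 11, 13 and 10, where 2.46%, 3.30% and 2.13% of all tested genes were lower. On the pan-neuronal scale 8 of the 60 were lower and 13 higher, against 1.04% and 30.1% of all tested genes, so that the higher calls were no more frequent than over all genes.

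Calmodulin itself, the calcium sensor shared by all these kinases, is encoded by more than 1 gene. Calm3 went from 2624 ± 198 to 1929 ± 118 CPM (a log2 change of -0.44, SE 0.082, adjusted p = 0.00543) and Calm2 from 1331 ± 95.9 to 1039 ± 26.6 (-0.36, SE 0.075, adjusted p = 0.00981). Neurogranin (Nrgn), which holds calmodulin at the membrane of dendritic spines when calcium is low, went from 1765 ± 65.7 to 1183 ± 169 CPM (-0.58, SE 0.098, adjusted p = 0.00370). Marcks, an actin and calmodulin binding protein of neurons and glia, rose from 116 ± 7.02 to 159 ± 15.1 CPM (0.45, SE 0.082, adjusted p = 0.00500). In this list 3 of 6 tested genes fell and 1 rose, and Pcp4 had too few counts to be tested. The calls of Calm3, Nrgn and Marcks held with each library left out. Those of Calm3 and Nrgn also held on the pan-neuronal scale, where Calm2 was not called (-0.12, adjusted p = 0.209). Marcks was called higher there as well, but that scale moves fold changes upward (30.1% of all tested genes higher) and is no check on a rise.

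The CaMKII inhibitor gene Camk2n1, whose small protein blocks the active kinase, went from 601 ± 42.1 to 438 ± 31.8 CPM (a log2 change of -0.46, SE 0.079, adjusted p = 0.00392), close to the change of Camk2a. The log2 FPKM ratio of Camk2n1 to Camk2a was -2.33 ± 0.15 in Control and -2.23 ± 0.12 in TAF15 OE, with overlap (exact permutation p = 0.3). Its relative Camk2n2 had a log2 fold change of -0.17 (adjusted p = 0.274).

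Of 8 other calmodulin-regulated or CaMK-like kinases 4 fell: Camkv, a pseudokinase that supports dendritic spines (880 ± 22.5 to 677 ± 19.3 CPM, log2 fold change -0.38, adjusted p = 0.00397), the doublecortin-like kinases Dclk1 (-0.33, adjusted p = 0.0290) and Dclk2 (-0.24, adjusted p = 0.0295), and the death-associated kinase Dapk1 (-0.31, adjusted p = 0.0394). Camkv held with each library left out. Dclk1 was lost without Control 1, 2 or 3 or TAF15 OE 2, Dclk2 without Control 1 or 3 or TAF15 OE 2 or 3, and Dapk1 without any 1 library but TAF15 OE 1, at adjusted p of up to 0.151. Dclk1 was also lost when both Control 1 and TAF15 OE 1 were left out (adjusted p = 0.0790). None of these 4 was called lower on the pan-neuronal scale. Of 5 phosphatase genes 2 fell. They were Ppm1e, a CaM kinase phosphatase gene (-0.35, SE 0.081, adjusted p = 0.0150), and Ppp1cc, a catalytic subunit of protein phosphatase 1 (-0.30, SE 0.071, adjusted p = 0.0183). Both were lost without Control 1 or TAF15 OE 2, Ppp1cc also without Control 3, and both on the pan-neuronal scale. Ppm1f, of the same list, was not called (93.2 ± 10.1 to 95.2 ± 3.42 CPM, log2 fold change 0.032, adjusted p = 0.846).

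Calcineurin, the calmodulin-activated phosphatase that opposes CaMKII in synaptic plasticity, showed falls of the same order. Its catalytic gene Ppp3ca went from 1979 ± 139 to 1322 ± 159 CPM (a log2 change of -0.58, SE 0.095, adjusted p = 0.00313) and its regulatory gene Ppp3r1 from 697 ± 59.9 to 516 ± 31.9 (-0.43, SE 0.080, adjusted p = 0.00547). Ppp3cb fell by 0.25 (adjusted p = 0.0249) and Rcan3, of the calcineurin regulator family, rose by 0.40 (adjusted p = 0.00964), so that 3 of 7 fell and 1 rose. Ppp3ca and Ppp3r1 held with each library left out and on the pan-neuronal scale. Ppp3cb was lost without Control 1, Control 3, TAF15 OE 2 or TAF15 OE 3 (adjusted p of up to 0.0985) and on the pan-neuronal scale (-0.016, adjusted p = 0.851), and Rcan3 without TAF15 OE 2 (adjusted p = 0.0528).

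Of 13 genes for proteins that CaMKII docks on or phosphorylates at the synapse, 8 fell and the median log2 fold change was -0.34. Kalrn, an exchange factor that enlarges spines, went from 745 ± 51.0 to 485 ± 29.7 CPM (-0.62, SE 0.076, adjusted p = 7.95e-04). The AMPA receptor subunit gene Gria1 went from 1239 ± 80.0 to 824 ± 42.5 CPM (-0.59, SE 0.076, adjusted p = 9.54e-04) and the NMDA receptor subunit gene Grin1 from 406 ± 4.65 to 297 ± 4.39 (-0.45, SE 0.060, adjusted p = 0.00109). Dlg4, the scaffold PSD-95, fell by 0.34 (SE 0.079, adjusted p = 0.0158), and was lost without Control 1, TAF15 OE 2 or TAF15 OE 3 (adjusted p of up to 0.0665) and on the pan-neuronal scale (adjusted p = 0.264). Kalrn, Gria1 and Grin1 held in all of these.

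Downstream of CaMKK and CaMKIV few genes passed. Of 9 genes for AMPK subunits and for LKB1, its other activating kinase, with LKB1's partners, only the AMPK gamma subunit gene Prkag2 did (137 ± 11.8 CPM under Control, 102 ± 11.4 under TAF15 OE, log2 fold change -0.43, SE 0.092, adjusted p = 0.0112). That call was lost without TAF15 OE 2 (adjusted p = 0.0593) and on the pan-neuronal scale (-0.19, adjusted p = 0.101). Of 10 substrates and coactivators of CaMKI and CaMKIV, among them Creb1 (log2 fold change 0.020, SE 0.092, adjusted p = 0.915), edgeR, DESeq2 and limma-voom each called 0, with 4, 3 and 3 at an unadjusted p below 0.05. The smallest p was that of Atf1, a relative of CREB (0.32, SE 0.12, adjusted p = 0.103). On the pan-neuronal scale, where 30.1% of all tested genes were higher, 5 of the 10 were called higher.

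**Figure D5:**
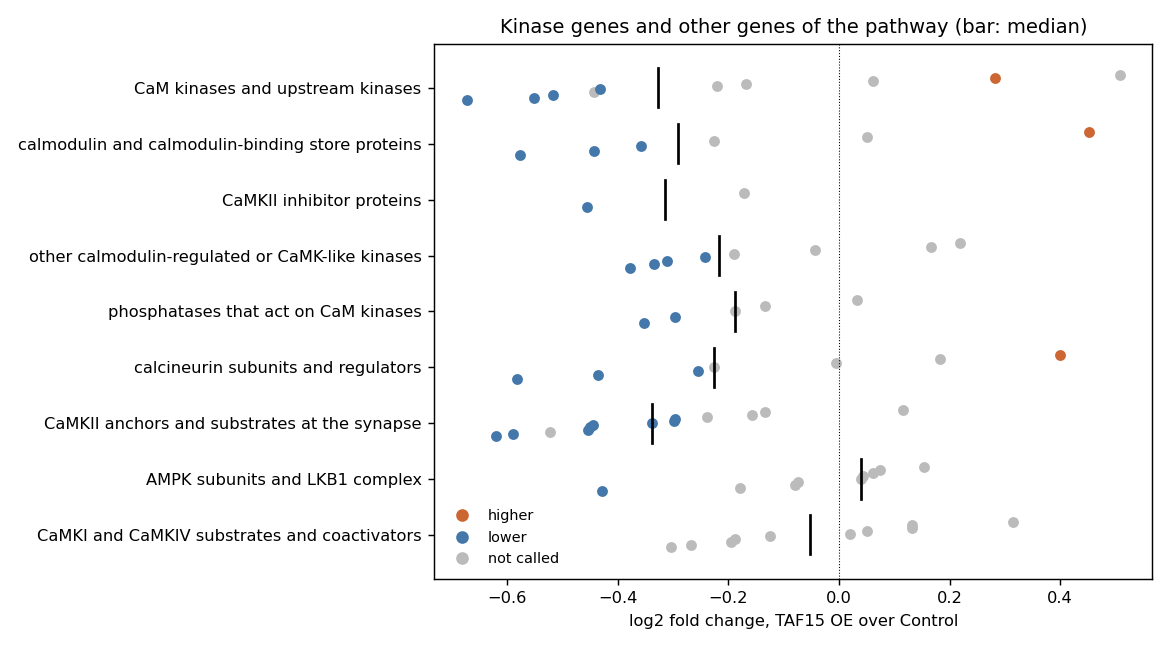
Log2 fold change of each tested gene, TAF15 OE over Control (horizontal axis), for the 10 kinase genes and 8 lists of other pathway genes, with the list median as a bar and colour for the call. The medians of the kinase genes (-0.33) and of the synaptic CaMKII partners (-0.34) are the lowest, and those of the AMPK and LKB1 genes (0.040) and of the CaMKI and CaMKIV substrates (-0.053) lie near 0.

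The authors' deposited table gives the same directions for the 10 genes, from the same counts. Its log2 fold changes for these genes equal those of DESeq2 above, so its calls are not a result apart from that one. Of these 10, the authors' deposited table gives 6 an adjusted p below 0.05, 5 of them lower and 1 higher, against 7.53% lower and 8.51% higher of the 17059 genes with such a value there: Camk2b (log2 fold change -0.70, adjusted p = 7.31e-11), Camkk2 (-0.55, 2.26e-07), Camk2a (-0.58, 5.29e-06), Camk1d (-0.46, 8.65e-04), Camkk1 (-0.47, 0.00507) and Camk2d (0.48, 0.0252). Camk1 has 0.25 and 0.112 there. None of the 10 is among the 558 genes that the authors' deposited table marks as significant, whose smallest absolute log2 fold change is 1.00.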

How the data were processed

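RNA-seq was done on 3 Control and 3 TAF15 OE hippocampal samples, with group and replicate as in each title. The tools listed in the submitters' processing notes are TopHat2, HISAT2 2.1.0, Bowtie2 2.2.3 and CASAVA, and the build is GRCm38. For the roles of these tools, the read counter, the annotation and the strandedness nothing is given in the sources used here. The authors deposited raw counts per Ensembl gene and FPKM values, which are counts divided by a fixed length per gene and by library depth (8926 genes checked, largest relative spread 3.89e-09). The authors' comparison table adds a normalised signal (a mean over libraries), a fold change as a ratio and as log2, and p-values, raw and adjusted, that the authors took from a test that is not named.

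Counts were analysed with edgeR 4.0.16 in R 4.3.3: filterByExpr (minimum count 10, minimum total 15), TMM scaling (factors 0.964 to 1.03), robust quasi-likelihood fit with group as the only term, Benjamini-Hochberg adjustment over 16758 genes, and calls at an adjusted p below 0.05. Standard errors come from the F statistic, intervals are 95%. The biological coefficient of variation was 13.1%. The fit was tested on simulated data. No libraries were duplicates (smallest chi-square per degree of freedom 5.15).

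The members and lists were chosen with earlier results of these data known. Named genes were all 10 members, Taf15, and from each pathway list up to 4 called genes with the smallest p, or the 1 with the smallest p where none was called. A few further ones (Camk2n2, Ppm1f, Creb1, Ogg1, Slc17a7 and Neurod6) were chosen after their values were seen. The alternatives were DESeq2 1.42.0 and its size factors, total counts, scaling on the geometric mean of 10 pan-neuronal genes, no filter or a mean of 1 CPM, limma-voom (limma 3.58.1), limma-trend on FPKM values logged after adding 1 or 0.1 (filtered at a mean FPKM of 0.5, or unfiltered), the replicate number as a block, and leaving out libraries. Gene positions are those of the authors' table, and overlaps were read from GENCODE M21 (GRCm38), which gives Camk4 another extent. Some items are not reported here.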

Additional observations from a re-analysis of the deposited data

How the results depend on the processing

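Camk2b and Camkk2 were called lower under all 18 alternatives, and Camk2a under 17, the exception being limma-trend on log2(FPKM + 1) without a filter (-0.50, adjusted p = 0.0741). In that alternative 2 kinase genes were lower and 0 higher, and 9 pathway genes lower (0.561% of all genes lower, 1.61% higher). With the filter, limma-trend called 12 pathway genes lower with a pseudocount of 1 and 14 with 0.1 (2.75% and 2.90% of all genes). With the size factors of DESeq2 in edgeR 0 kinase genes were higher (8.54% of all genes). On the pan-neuronal scale 2 kinase genes and 13 pathway genes were higher and 8 pathway genes lower (30.1% and 1.04% of all genes), and Camk4 (0.072) and Camk1g (0.021) changed sign. Without both Control 1 and TAF15 OE 1, 2 kinase genes were higher (7.05% of all genes). Leaving out single libraries, the higher kinase genes numbered 0 to 2 and the higher pathway genes 1 to 2 (5.1% to 7.56% of all genes). The lower kinase genes then numbered 3 to 5 and the lower pathway genes 10 to 24 (2.13% to 7.06% of all genes). The Camk2a share difference ran from -0.96 to 0.24 percentage points.

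Same-numbered samples are not stated to be related, and the correlations of their deviations from the group means were 0.126, 0.0776 and 0.0871, so the numbers were not taken as pairs, although each library correlated best with its own number. With the replicate number as a block, 2 kinase genes were higher and 5 lower, Camk2d (adjusted p = 0.00377) and Camkk1 (adjusted p = 0.00403) being added, and 26 pathway genes were lower (11.4% of all genes higher, 8.28% lower). The lowest count of a kinase gene in any library was 313.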

Other observations

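Over the 6 libraries, the genes whose level followed a kinase gene most closely were searched among 9006 genes whose log2 CPM averaged 4 or more. The values describe these libraries: the points share the group difference and the library, and no test was made. Camkk2 was followed most closely by Matn2 (Pearson r = 0.9996), a matrix protein gene, and by Syt1 (0.999), the calcium sensor of synaptic vesicle release. Camk2b was followed by Arhgef25 (0.998), the channel gene Panx2 (0.998) and the calcineurin gene Ppp3ca (0.998). Camk2a was followed by the adhesion gene Clmp (0.998), the endoplasmic reticulum calcium sensor gene Stim2 (0.997) and Usp33 (0.997). Among the genes that followed Camkk1 were Lrrc10b (0.996) and Ywhah (0.994), and Camk2d was followed by the amino acid transporter chain gene Slc3a2 (0.991), the lysosomal fucosidase gene Fuca1 (0.989) and Lurap1 (0.987).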
